A study of Mus musculus with 18 samples.

Results

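The genes described here are 43 genes of DNA replication and cell division, found by their symbols among the 25124 genes counted in each depot. They comprised 30 genes whose products act mainly in late interphase and mitosis (the mitotic genes), 12 genes of DNA synthesis (the S phase genes) and Stmn1, which encodes stathmin, a protein that destabilizes microtubules. The genes were matched by symbol alone.

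The study asked how loss of caspase-6, a cysteine protease of the apoptotic cascade, affects adipose tissue in diet-induced obesity. Poly(A) RNA was sequenced from the inguinal (iWAT) and epididymal (eWAT) white fat depots and from brown fat (BAT) of wild type (WT) and whole-body caspase-6 knockout (C6KO) male mice. Both genotypes were on the C57BL/6J background and came from breeding of heterozygous mice, all ate a high fat diet (HFD, 60% of calories as fat) over 12 weeks, beginning at an age of 10 to 14 weeks, and all were fasted for 10 h before the tissues were taken. Each of the 6 combinations of depot and genotype had 3 libraries, which gave 18 libraries in all. The knockout is global, so no cell type of the tissue is spared. The sources used here do not say which libraries of different depots came from the same animal, and the p-values below measure only the spread between these libraries.

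Dividing cells switch on the S phase genes first and the mitotic genes later. E2F factors drive the genes for the replicative helicase and for nucleotide synthesis as cells enter DNA synthesis, whereas B-MYB and FOXM1, bound with the MuvB complex, drive cyclin B, mitotic kinases, kinesins and checkpoint proteins toward mitosis. In obese adipose tissue the cells known to divide include macrophages, adipocyte progenitors, endothelial cells and lymphocytes, while mature adipocytes rarely divide.

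The promoters of both classes are shown here because they carry different short sequences that the literature connects with this timing. In RefSeq's promoter table of assembly GRCm38.p6, which has the coordinates of mm10, 37 of the 43 genes had a promoter of 300 bases, from 250 bases before to 50 bases after the start of transcription. Letters of the cell cycle genes homology region (CHR, TTTGAA or TTCGAA, the element bound by MuvB) were found on either strand in 22 of 26 mitotic promoters, or 84.6%. Only 1 of 11 S phase promoters, that of Mcm2, held these letters (9.09%), and 3150 of all 18354 promoters did (17.2%). The CCAAT box occurred in 80.8% of the mitotic, 72.7% of the S phase and 38.8% of all promoters. CHR letters and a CCAAT box stood together in 20 of the 26 mitotic promoters (76.9%), against 7.04% of all promoters. Letters of an E2F core (the form TTGGCGC, the form TTCCCGC, the form TTCGCGC or the form TTGCCGC) were found in 6 of 26 mitotic promoters (23.1%), in 6 of 11 S phase promoters (54.5%) and in 12.4% of all promoters. The 11 S phase promoters include that of E2f1, whose nearest start in the promoter table lay 466 bases from the listed transcript's start. The E2f1 window held no CHR, CCAAT or E2F letters. TTCGAA is its own reverse complement and was counted once per position, and the E2F letters can overlap each other. These are matches of letters in a window, and no binding was measured.

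**Figure D1:**
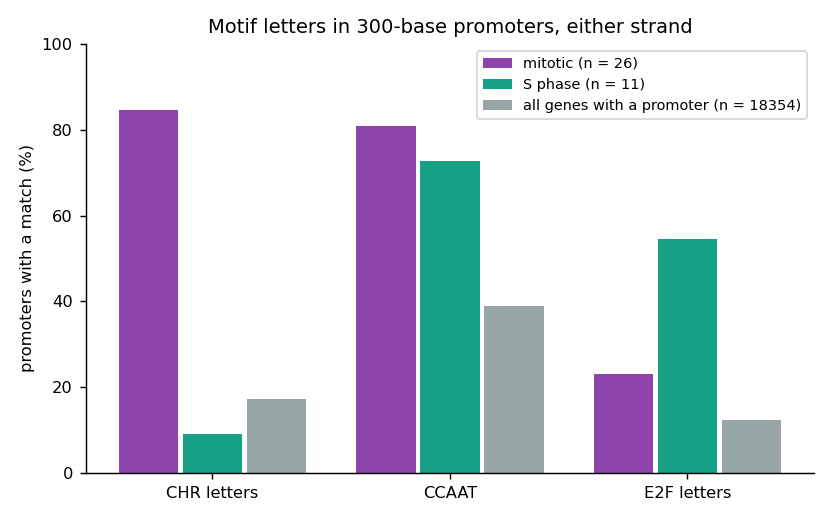
Share of promoters (percent, vertical axis from 0 to 100) with at least 1 match to the CHR letters, CCAAT or the E2F letters, for 26 mitotic genes, 11 S phase genes and all 18354 genes with a promoter in the table. CHR letters were found in 84.6% of mitotic and 9.09% of S phase promoters, and E2F letters in 23.1% and 54.5%.

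The 250 bases before the start are printed for a pair of mitotic and a pair of S phase genes on which the results below turn, in lower case, 5′ to 3′ on the gene's own strand, with matches to the CHR, CCAAT or E2F letters (or their reverse complements) in capitals. Mki67 lies at chr7:135716380-135716629, Top2a at chr11:99024190-99024439, Mcm6 at chr1:128359706-128359955 and Mcm7 at chr5:138171267-138171516, all on the minus strand. The Mki67 stretch held CHR letters at 2 positions, CCAAT at 3 and an E2F core at 1, and that of Top2a held CHR letters at 4 positions and CCAAT at 6. The Mcm6 stretch held CCAAT at 2 positions and E2F letters at 4, which overlap as 2 runs, and that of Mcm7 held 1 CCAAT box and 1 E2F core.
Mki67: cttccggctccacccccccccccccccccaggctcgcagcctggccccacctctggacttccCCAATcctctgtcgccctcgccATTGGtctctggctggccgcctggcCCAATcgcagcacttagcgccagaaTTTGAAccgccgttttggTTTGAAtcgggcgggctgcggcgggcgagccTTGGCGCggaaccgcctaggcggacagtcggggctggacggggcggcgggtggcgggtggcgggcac
Top2a: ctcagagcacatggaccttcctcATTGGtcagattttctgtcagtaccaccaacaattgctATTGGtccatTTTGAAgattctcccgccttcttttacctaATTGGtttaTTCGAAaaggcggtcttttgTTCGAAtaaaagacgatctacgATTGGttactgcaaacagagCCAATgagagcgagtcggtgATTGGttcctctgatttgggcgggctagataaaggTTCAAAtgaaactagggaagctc
Mcm6: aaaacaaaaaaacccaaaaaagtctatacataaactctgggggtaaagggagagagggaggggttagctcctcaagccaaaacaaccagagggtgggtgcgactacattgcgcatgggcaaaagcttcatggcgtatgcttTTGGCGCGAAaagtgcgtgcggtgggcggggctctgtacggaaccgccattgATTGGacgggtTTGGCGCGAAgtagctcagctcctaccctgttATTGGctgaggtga
Mcm7: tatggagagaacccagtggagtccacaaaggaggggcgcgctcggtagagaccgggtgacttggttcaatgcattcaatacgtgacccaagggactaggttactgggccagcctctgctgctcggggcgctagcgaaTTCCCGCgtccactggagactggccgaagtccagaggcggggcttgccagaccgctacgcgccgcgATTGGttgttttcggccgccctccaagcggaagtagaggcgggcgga

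The eWAT libraries held 16717201 to 19139694 counts each, those of iWAT 16506034 to 19043523 and those of BAT 7803108 to 12428683, so that rare transcripts were counted least deeply in BAT. Casp6 counts did not overlap between genotypes in any depot and in the libraries labelled C6KO were 100, 124 and 74 (eWAT), 99, 112 and 141 (iWAT) and 26, 65 and 71 (BAT). The WT counts of Casp6 were 322, 422 and 331 (eWAT), 342, 338 and 289 (iWAT) and 145, 127 and 139 (BAT). Brown adipocyte markers summed to 5432 to 12030 CPM (counts relative to the library's total) in BAT and to 8.03 to 28.8 CPM in the white depots, while testis and epididymis markers reached at most 0.168 CPM in any library. Skeletal muscle markers reached 26730 CPM in 1 BAT library (WT replicate 2), and B lymphocyte markers ranged from 14.4 to 290 CPM among the eWAT libraries.

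C6KO and WT were compared within each depot with edgeR's quasi-likelihood test over all genes, and a gene was called when its Benjamini-Hochberg adjusted p was below 0.05 and its estimated fold change at least 1.5. Values are CPM scaled within the depot, listed for replicates 1, 2 and 3. In eWAT, 2 of the 43 genes were called, and both fell in C6KO: Mki67, which encodes the Ki-67 protein that coats mitotic chromosomes, and Top2a, which encodes DNA topoisomerase II alpha, the enzyme that disentangles sister chromatids. In iWAT 0 of 43 and in BAT 0 of the 31 genes tested were called. The deleted gene Casp6 was itself not called by this test in iWAT (log2 fold change -1.51, edgeR adjusted p = 0.0751) or BAT (-1.50, edgeR adjusted p = 0.0671). Casp6 was called in eWAT (-1.85, edgeR adjusted p = 0.0132), and DESeq2 called it in each depot. A count of 0 calls therefore does not show that a difference is absent. Estimates were below 0 for 42 of 43 genes in eWAT, 40 of 43 in iWAT and 29 of 31 in BAT, with medians of -0.45, -0.86 and -0.75 on the log2 scale. A gene could pass the filter on low counts through 1 genotype alone, as Tpx2 did in BAT through WT. The counts and medians given here and below include such genes, whose direction is partly set by the filter. The medians over all genes tested were -0.01, 0.03 and -0.03 in the same order. In whole tissue, fewer cells of a dividing type and less of these transcripts per cell cannot be told apart.

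Mki67 (NM_001081117, chr7:135689788-135716379) had 91.6, 104 and 88.9 CPM in the WT and 63.1, 58.4 and 55.7 CPM in the C6KO libraries of eWAT. Mki67 stood at 22.4, 23.5 and 20.5 CPM in WT and 11.3, 4.26 and 13.7 CPM in C6KO of iWAT. Mki67 stood at 6.07, 9.34 and 10.1 CPM in WT and 2.48, 2.32 and 5.16 CPM in C6KO of BAT. All 3 C6KO libraries lay below all 3 WT libraries in each depot, and replicate 2 was the lowest C6KO library in iWAT. The Mki67 means in eWAT were 94.7 ± 7.90 CPM in WT and 59.1 ± 3.73 CPM in C6KO (SD, n = 3 each), and the log2 fold change was -0.68 (SE 0.11, edgeR adjusted p = 0.0419). For Mki67 the log2 fold change was -1.19 (SE 0.37, edgeR adjusted p = 0.202) in iWAT and -1.36 (SE 0.38, edgeR adjusted p = 0.142) in BAT, neither of which was called. Across the 18 libraries the Mki67 counts ran from 21 in BAT C6KO to 1898 in eWAT WT.

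Top2a (NM_011623, chr11:98992947-99024189) had 50.7, 64.4 and 58.5 CPM in the WT and 34.4, 39.9 and 34.3 CPM in the C6KO libraries of eWAT. Top2a stood at 13.96, 14.4 and 13.8 CPM in WT and 7.06, 4.86 and 9.57 CPM in C6KO of iWAT. Top2a stood at 5.95, 4.94 and 5.599 CPM in WT and 1.66, 1.16 and 2.24 CPM in C6KO of BAT. As for Mki67, the genotypes did not overlap in any depot, and the 3 WT libraries of iWAT lay close together. The Top2a means in eWAT were 57.9 ± 6.87 CPM in WT and 36.2 ± 3.18 CPM in C6KO (SD, n = 3 each), a log2 fold change of -0.68 (SE 0.12, edgeR adjusted p = 0.0468). In BAT, Top2a had the smallest p of the 31 genes, with a log2 fold change of -1.70 (SE 0.35, edgeR adjusted p = 0.0581), and in iWAT the estimate was -0.97 (SE 0.25, edgeR adjusted p = 0.161). DESeq2 called Mki67 and Top2a in all 3 depots. In the edgeR test of eWAT neither gene was called once WT replicate 1, 2 or 3 or C6KO replicate 1 or 3 was left out, and 6 genes were called without C6KO replicate 2, against 0.616% of all genes called lower in that fit. Neither was called for eWAT when all 18 libraries shared 1 estimate of the spread.

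**Figure D2:**
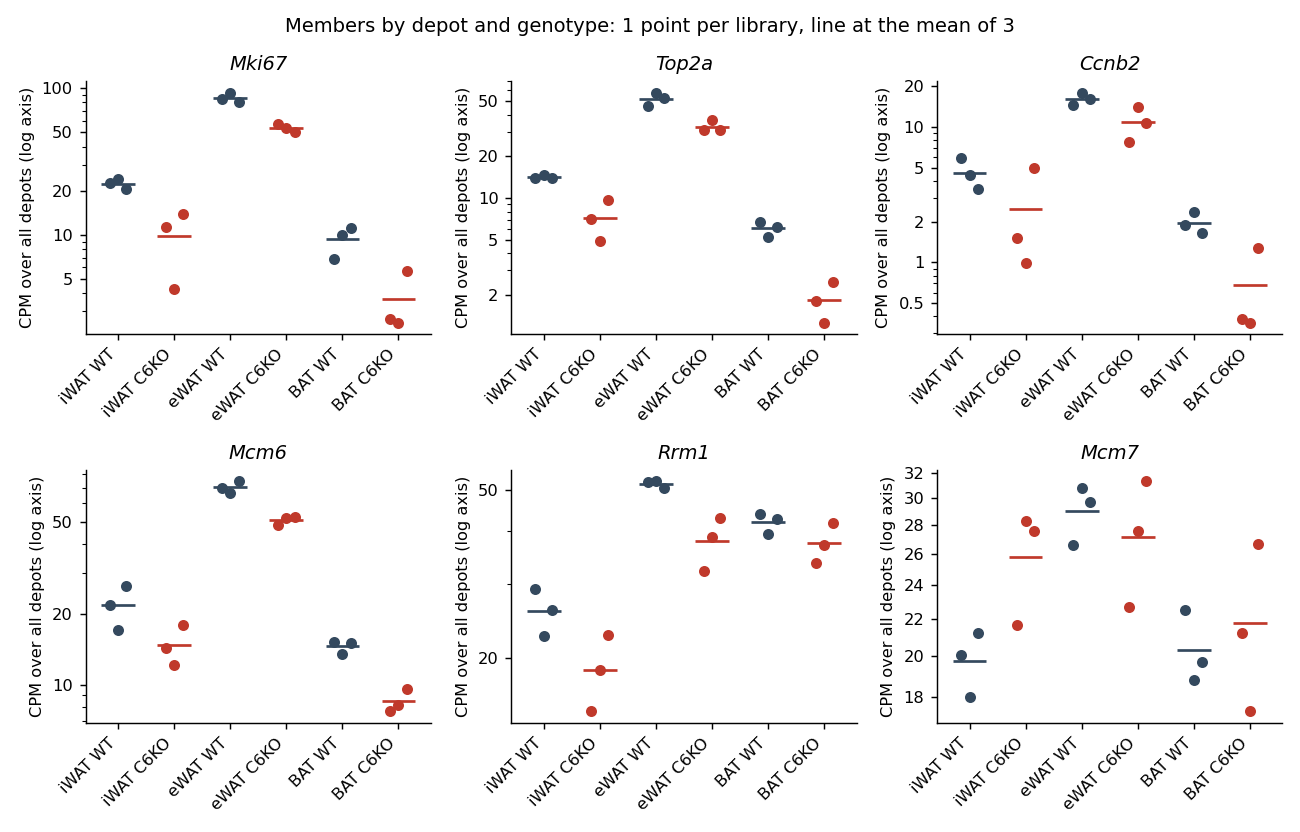
CPM scaled over all depots (log axis, its range set per panel) of 3 mitotic genes (Mki67, Top2a and Ccnb2, upper row) and 3 S phase genes (Mcm6, Rrm1 and Mcm7, lower row) in the 6 groups, with 1 point per library and a line at the mean of 3. For Mki67 and Top2a every C6KO point lies below every WT point of the same depot, while the points of Mcm7 overlap between genotypes in eWAT and BAT and lie higher in C6KO in iWAT.

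The counts of genes were compared with those over the whole table. The 2 genes called in eWAT stood against a background of 0.208% of all genes called lower there, and the background was 0.0206% in iWAT and 1.07% in BAT. At an unadjusted p below 0.05 with a fold change of at least 1.5, 20 of 43 genes were lower in iWAT (background 6.72%), 8 of 43 in eWAT (background 2.79%) and 13 of 31 in BAT (background 6.27%), and 0 were higher. DESeq2 called 8 genes lower in iWAT (Mki67, Top2a, Aurkb, Kif15, Melk, Ect2, Mcm5 and Tk1, background 3.53%), 6 in eWAT (Mki67, Top2a, Kif11, Kif15, Cenpf and Nusap1, background 1.22%) and 2 in BAT (Mki67 and Top2a, background 2.62%). Every C6KO library lay below every WT library for 22 of 43 genes in iWAT (background 12.2%), 27 of 43 in eWAT (background 11.2%) and 16 of the 31 tested in BAT (background 12.1%). Mki67, Top2a, Cenpf, Prc1 and Mcm2 were separated in this way in all 3 depots, 18 genes in 2 depots, 14 in 1 depot where tested, and 6 (Ccnb1, Cdc20, Ttk, Mcm7, Tyms and E2f1) in none. The 12 genes not tested in BAT, all mitotic, were Ccnb1, Bub1, Birc5, Aurkb, Plk1, Kif15, Kif4, Ube2c, Ttk, Melk, Cdca8 and Hmmr, whose counts there were too low for the filter, with 0 to 7 Aurkb and 0 to 4 Hmmr counts per C6KO library and 9 to 14 and 5 to 23 per WT library.

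**Figure D3:**
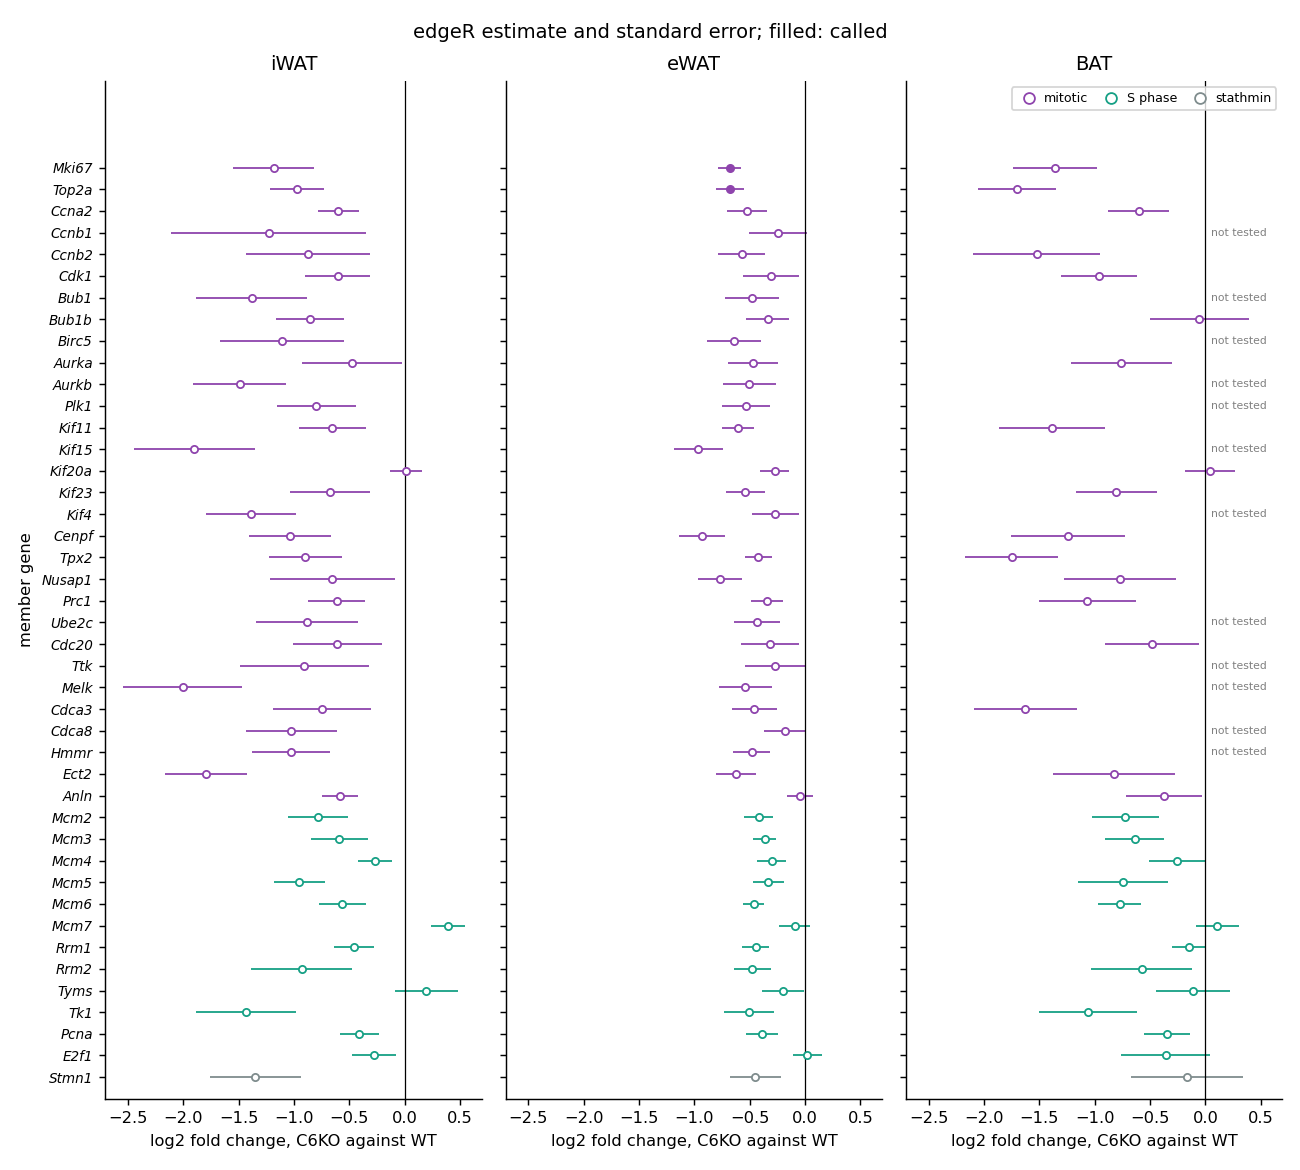
Log2 fold change of C6KO against WT (horizontal axis) with its standard error for each of the 43 genes (rows) in iWAT, eWAT and BAT. Filled points were called, which holds for Mki67 and Top2a in eWAT, and most open points lie left of 0, with Mcm7 at 0.39 in iWAT farthest to the right.

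Of the iWAT C6KO libraries, replicate 3 lay nearest to WT. Its mitotic genes summed to 163 CPM, against 116 and 86.8 CPM in the other iWAT C6KO libraries and 187 to 241 CPM in WT. Without this library, 17 of the 43 genes were called lower in iWAT, among them Mki67, Top2a, Ccnb2, Cdk1, Aurkb, Ect2, Mcm2, Mcm5, Rrm2 and Tk1, against 6.43% of all genes called lower in that fit, whereas without any other single iWAT library 0 were called. Its macrophage markers summed to 1282 CPM, between the 438 and 450 CPM of the other C6KO libraries and the 1732 to 1913 CPM of WT.

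Among the cyclins and their kinase, edgeR and DESeq2 called 0 of 4 genes in the white depots and 0 of the 3 tested in BAT. At an unadjusted p below 0.05 with a fold change of 1.5, 0 of them were lower in eWAT (background 2.79%), 1 in iWAT (background 6.72%) and 2 in BAT (background 6.27%). The estimates of the 4 lay between -1.23 and -0.60 in iWAT and between -0.57 and -0.24 in eWAT. Ccnb2 encodes cyclin B2, which activates CDK1 for entry into mitosis. Ccnb2 stood at 5.83, 4.34 and 3.45 CPM in WT and 1.51, 0.983 and 4.93 CPM in C6KO of iWAT. Ccnb2 stood at 15.7, 19.9 and 17.8 CPM in WT and 8.53, 15.5 and 11.95 CPM in C6KO of eWAT. Ccnb2 stood at 1.68, 2.204 and 1.5 CPM in WT and 0.355, 0.331 and 1.17 CPM in C6KO of BAT. The genotypes did not overlap in eWAT and BAT, and in iWAT C6KO replicate 3 lay within the WT range. The log2 fold changes of Ccnb2 were -0.88 (SE 0.56, edgeR adjusted p = 0.468) in iWAT, -0.57 in eWAT and -1.52 in BAT. Cdk1, the kinase itself, stood at 20.6, 16.6 and 14.8 CPM in WT and 8.795, 8.19 and 17.2 CPM in C6KO of iWAT. Cdk1 stood at 22.6, 23.9 and 17.1 CPM in WT and 12.3, 24.2 and 14.9 CPM in C6KO of eWAT. In BAT, Cdk1 was counted at 3.49, 4.05 and 3.799 CPM in WT and 2.13, 2.24 and 1.46 CPM in C6KO. The Cdk1 groups overlapped in both white depots and were separate in BAT, where the log2 fold change was -0.96 (SE 0.34, edgeR adjusted p = 0.26).

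The 3 kinase genes of the spindle checkpoint (Bub1, Bub1b and Ttk), which hold cells in metaphase until chromosomes are attached, had estimates of -1.38 to -0.86 in iWAT and -0.48 to -0.27 in eWAT. edgeR and DESeq2 called 0 of the 3 in the white depots and 0 of the 1 tested in BAT (Bub1b). At an unadjusted p below 0.05 with a fold change of 1.5, 2 were lower in iWAT (background 6.72%), 0 in eWAT (background 2.79%) and 0 of the 1 in BAT (background 6.27%). Bub1b stood at 7.89, 6.63 and 6.06 CPM in WT and 3.19, 2.73 and 5.44 CPM in C6KO of iWAT. Bub1b stood at 19.95, 23.7 and 15.5 CPM in WT and 12.4, 16.2 and 18.2 CPM in C6KO of eWAT. In BAT, Bub1b was counted at 1.68, 1.68 and 3.399 CPM in WT and 1.54, 2.98 and 1.95 CPM in C6KO. Bub1b was separate between genotypes in iWAT, where its log2 fold change was -0.86 (SE 0.31, edgeR adjusted p = 0.233), and overlapped in eWAT and in BAT, where its estimate changed sign without single libraries. The chromosomal passenger complex corrects faulty attachments, and its genes Aurkb (the kinase), Birc5 (survivin) and Cdca8 (borealin) were each below WT in every iWAT library of C6KO (background 12.2%). Aurkb stood at 5.3, 4.75 and 4.78 CPM in WT and 1.96, 0.765 and 2.55 CPM in C6KO of iWAT and had a log2 fold change of -1.49 (SE 0.42, edgeR adjusted p = 0.168) there. Aurkb stood at 8.91, 14.7 and 14.6 CPM in WT and 7.03, 10.5 and 9.396 CPM in C6KO of eWAT, where the genotypes overlapped and the log2 fold change was -0.50 (SE 0.24, edgeR adjusted p = 0.311). Among the other mitotic kinases, Melk had the lowest estimate of all 43 genes in iWAT. Melk stood at 4.004, 1.23 and 2.001 CPM in WT and 0.616, 0.655 and 0.5096 CPM in C6KO of iWAT, with WT replicate 1 far above the other two, and its log2 fold change was -2.01 (SE 0.54, edgeR adjusted p = 0.166). Aurka and Plk1, which mature the centrosomes, had estimates of -0.47 and -0.80 in iWAT and of -0.47 and -0.54 in eWAT.

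Kinesins move chromosomes and slide spindle microtubules, and 4 of the 5 kinesin genes had lower estimates in iWAT, all 5 in eWAT and 2 of the 3 tested in BAT. Kif15 had the lowest estimate of the 43 genes in eWAT. Kif15 stood at 10.7, 13.4 and 8.69 CPM in WT and 5.59, 6.55 and 4.64 CPM in C6KO of eWAT, without overlap, and its log2 fold change was -0.96 (SE 0.22, edgeR adjusted p = 0.0655). Kif15 stood at 4.12, 2.11 and 1.78 CPM in WT and 0.896, 0.328 and 0.906 CPM in C6KO of iWAT, where the log2 fold change was -1.90 (SE 0.55, edgeR adjusted p = 0.177). Kif11, the motor that separates the spindle poles, stood at 18.2, 21.9 and 18.9 CPM in WT and 12.2, 14.4 and 12.3 CPM in C6KO of eWAT, a log2 fold change of -0.60 (SE 0.14, edgeR adjusted p = 0.07). Kif20a encodes the kinesin of the central spindle, and it had estimates near 0 outside eWAT. Kif20a had 16.6, 14.1 and 15.8 CPM in the WT and 16.3, 14.9 and 15.7 CPM in the C6KO libraries of iWAT. Kif20a stood at 27.7, 21.96 and 22.3 CPM in WT and 19.4, 21.1 and 18.97 CPM in C6KO of eWAT. In BAT, Kif20a was counted at 11.2, 12.2 and 8.798 CPM in WT and 10.9, 9.28 and 13.04 CPM in C6KO. Its groups overlapped in iWAT and BAT, where its log2 fold changes were 0.01 and 0.04 and changed sign without single libraries and, for iWAT, with total counts as the only scaling, and it was lower in C6KO in every eWAT library, at -0.28 (SE 0.13, edgeR adjusted p = 0.332). Of the exonic bases annotated for Kif20a, 29.4% overlap exons of Cdc23 on the other strand, and reads of such a pair cannot be told apart where counting ignores strand, which the sources used here do not state. Cdc23, a subunit of the anaphase-promoting complex, had log2 fold changes of -0.03 in eWAT, 0.10 in iWAT and -0.06 in BAT. Overlap with an opposite-strand exon was smaller for the other 8 genes that had one, from 1.6% of exonic bases for Tk1 to 12.5% for Ccna2.

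Of the genes for spindle assembly and chromosome structure, all 6 were below WT in every C6KO library of eWAT (background 11.2%), a group that holds Mki67 and Top2a. Tpx2 encodes the activator that brings Aurora A to spindle microtubules, and it had the lowest estimate of the 31 genes in BAT. There it passed the filter on low counts through its WT libraries alone. Tpx2 stood at 2.71, 2.997 and 2.0 CPM in WT and 0.828, 0.5798 and 0.876 CPM in C6KO of BAT, without overlap, at a log2 fold change of -1.75 (SE 0.42, edgeR adjusted p = 0.0937). Tpx2 stood at 9.54, 5.397 and 8.51 CPM in WT and 3.08, 3.496 and 6.002 CPM in C6KO of iWAT. In eWAT, Tpx2 was counted at 23.8, 25.8 and 22.4 CPM in WT and 16.8, 18.5 and 18.4 CPM in C6KO. Tpx2 was separate between genotypes in eWAT as well, and in iWAT C6KO replicate 3 lay above WT replicate 2. Cenpf, a kinetochore protein gene, had log2 fold changes of -1.04, -0.93 and -1.24 in iWAT, eWAT and BAT, separate in each.

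Cytokinesis genes were below WT in every C6KO library of iWAT for all 3 of Ect2, Prc1 and Anln (background 12.2%). Ect2 encodes the exchange factor that activates RhoA at the cleavage furrow, and it had the smallest p of the 43 genes in iWAT. Ect2 stood at 5.12, 3.58 and 4.17 CPM in WT and 1.29, 0.819 and 1.59 CPM in C6KO of iWAT, and its log2 fold change was -1.80 (SE 0.37, edgeR adjusted p = 0.147). Ect2 stood at 11.6, 11.2 and 8.69 CPM in WT and 6.73, 6.82 and 6.84 CPM in C6KO of eWAT. In BAT, Ect2 was counted at 3.36, 1.41 and 1.4 CPM in WT and 1.42, 0.5798 and 1.46 CPM in C6KO. The eWAT groups were separate and the BAT groups overlapped, with log2 fold changes of -0.63 (SE 0.18, edgeR adjusted p = 0.114) and -0.82 (SE 0.55, edgeR adjusted p = 0.575). Anln, which encodes the scaffold anillin, was at -0.58 in iWAT but at -0.05 in eWAT. For the partners of the ubiquitin ligases that end mitosis, Ube2c stood at 9.25, 7.16 and 6.06 CPM in WT and 3.98, 1.53 and 6.68 CPM in C6KO of iWAT, where C6KO replicate 3 lay within the WT range, and the log2 fold change of Ube2c was -0.88 (SE 0.46, edgeR adjusted p = 0.38). Cdc20, which activates the anaphase-promoting complex, overlapped between genotypes in all 3 depots, with estimates of -0.61, -0.31 and -0.48. Stmn1 was at -1.35 (SE 0.41, edgeR adjusted p = 0.19) in iWAT, at -0.45 in eWAT and at -0.17 in BAT.

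The S phase genes had medians nearer to 0 than the mitotic genes, and edgeR called 0 of the 12 in any depot. At an unadjusted p below 0.05 with a fold change of 1.5, 0 were lower in eWAT (background 2.79%), 4 in iWAT (background 6.72%) and 4 in BAT (background 6.27%). DESeq2 called 2 in iWAT (Mcm5 and Tk1, background 3.53%). The minichromosome maintenance genes Mcm2 to Mcm7 encode the 6 subunits of the replicative helicase, which act as 1 ring. Mcm6 stood at 76.5, 74.2 and 82.5 CPM in WT and 53.9, 56.6 and 58.4 CPM in C6KO of eWAT. Mcm6 stood at 13.4, 12.8 and 13.7 CPM in WT and 7.096, 7.54 and 8.66 CPM in C6KO of BAT. In iWAT, Mcm6 was counted at 21.9, 16.95 and 26.4 CPM in WT and 14.3, 12.1 and 17.7 CPM in C6KO. Mcm6 was separate between genotypes in eWAT and BAT and overlapped in iWAT, with log2 fold changes of -0.47 (SE 0.10, edgeR adjusted p = 0.0571), -0.78 (SE 0.20, edgeR adjusted p = 0.107) and -0.56 (SE 0.21, edgeR adjusted p = 0.237) in that order. Mcm7 stood at 19.9, 17.8 and 21.1 CPM in WT and 21.6, 28.1 and 27.2 CPM in C6KO of iWAT. Mcm7 stood at 29.04, 34.3 and 32.8 CPM in WT and 25.1, 30.2 and 34.9 CPM in C6KO of eWAT. In BAT, Mcm7 was counted at 19.9, 17.7 and 17.9 CPM in WT and 19.6, 15.99 and 24.2 CPM in C6KO. All 3 C6KO libraries of iWAT lay above all 3 WT libraries for Mcm7, the single gene of the 43 for which this held in any depot. Backgrounds for such upward separation were 10.9% (iWAT), 12% (eWAT) and 8.07% (BAT), so it was common over the whole table. The Mcm7 groups overlapped in the other depots. The Mcm7 estimate was -0.09 in eWAT, 0.39 (SE 0.15, edgeR adjusted p = 0.257) in iWAT and 0.11 in BAT. The eWAT and BAT estimates of Mcm7 changed sign without single libraries, and the estimates of the other 5 helicase genes ran from -0.95 to -0.27 in iWAT. The Mcm7 gene also hosts the microRNA genes Mir25 and Mir93, and its kept transcript differed between the depots' tables, as did those of Bub1, Aurka, Prc1 and Ect2, which does not touch comparisons within a depot.

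Ribonucleotide reductase supplies deoxynucleotides from subunits encoded by Rrm1 and Rrm2. Rrm1 stood at 57.1, 58.2 and 55.7 CPM in WT and 35.7, 42.4 and 47.7 CPM in C6KO of eWAT. Rrm1 stood at 28.9, 22.3 and 25.7 CPM in WT and 14.96, 18.6 and 22.4 CPM in C6KO of iWAT. In BAT, Rrm1 was counted at 38.8, 37.1 and 38.7 CPM in WT and 31.1, 34.1 and 37.96 CPM in C6KO. Rrm1 was separate between genotypes in eWAT, where its log2 fold change was -0.44 (SE 0.12, edgeR adjusted p = 0.102), and was -0.46 in iWAT and -0.15 in BAT. Tk1, thymidine kinase of the salvage pathway, stood at 5.95, 6.28 and 6.62 CPM in WT and 1.401, 1.31 and 4.25 CPM in C6KO of iWAT, a log2 fold change of -1.44 (SE 0.45, edgeR adjusted p = 0.196). Tk1 had an estimate of -0.51 in eWAT with overlap and of -1.06 in BAT without it. Tyms, thymidylate synthase, was within overlapping ranges in all depots, with estimates of 0.20, -0.20 and -0.11, and the transcript kept for Tyms carries a non-coding identifier (NR_033402). Pcna encodes the sliding clamp of DNA polymerases and stood at 67.95, 80.9 and 66.9 CPM in WT and 44.7, 64.02 and 56.1 CPM in C6KO of eWAT. The Pcna groups were separate there, with a log2 fold change of -0.39 (SE 0.14, edgeR adjusted p = 0.201), and the estimate was -0.41 in iWAT and -0.34 in BAT. E2f1, itself a transcription factor of S phase entry, stood at 28.6, 25.4 and 30.5 CPM in WT and 24.8, 31.2 and 29.6 CPM in C6KO of eWAT, fully overlapping, and at 0.02 (SE 0.13, edgeR adjusted p = 0.963) had the highest estimate of the 43 genes there, with a sign that changed with total counts as the only scaling.

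The mitotic and S phase genes were set side by side by their medians and by their summed CPM in each library, with no test over the lists. In eWAT the median log2 fold change was -0.48 for the 30 mitotic and -0.38 for the 12 S phase genes. The medians were -0.89 and -0.51 in iWAT, and for BAT they were -0.89 over the 18 mitotic genes tested and -0.47. The mitotic genes summed to 77.4 to 80.7 CPM in BAT of WT and 38.9 to 53.7 CPM in BAT of C6KO, while the S phase genes summed to 130 to 140 and 97.7 to 124 CPM. The ratio of mitotic to S phase CPM was 0.574, 0.602 and 0.594 in the WT and 0.380, 0.398 and 0.433 in the C6KO libraries of BAT, without overlap. That ratio was 1.27, 1.31 and 1.18 in the WT libraries of eWAT against 1.13, 1.22 and 1.03 for C6KO. For iWAT it was 1.26, 1.26 and 0.956 in the WT libraries against 0.971, 0.656 and 0.963 for C6KO. The ratios thus overlapped between genotypes in both white depots, and those of BAT were the lowest of the 3 depots in either genotype. Genes with high levels weigh most in these sums and ratios. In BAT they include Rrm1 and also Kif20a, whose overlap with Cdc23 is given above.

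In every depot the markers of macrophages had lower estimates alongside the 43 genes. The 12 markers (Ptprc, Adgre1, Cd68, Csf1r, Lyz2, Itgam, Itgax, Cd14, Mrc1, Cx3cr1, Trem2 and Mertk) had lower estimates in C6KO for 11 of 12 in eWAT, 12 of 12 in iWAT and 11 of 12 in BAT, with medians of -0.54, -1.35 and -1.41. Of these, edgeR called 0 in iWAT (10 at an unadjusted p below 0.05 with a fold change of 1.5, and 5 by DESeq2), 0 in eWAT (3 unadjusted and 2 by DESeq2) and 5 in BAT. Over all genes, 6.72% in iWAT and 2.79% in eWAT were lower unadjusted, and 3.53% and 1.22% by DESeq2. In BAT edgeR called 1.07% of all genes lower. None of the 12 was at 0 in any library. Their summed level was 6562 to 7750 CPM in WT and 4426 to 5410 CPM in C6KO of eWAT, and 693 to 798 CPM in WT and 238 to 349 CPM in C6KO of BAT. The part of macrophage number in the differences of the 43 genes was not tested.

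Per 100 CPM of macrophage markers, the mitotic genes of eWAT had 8.2, 8.02 and 8.36 CPM in WT and 8.08, 8.51 and 8.14 CPM in C6KO, so the genotypes overlapped on this scale. In iWAT the same quantity was 13.9, 11.4 and 9.75 for the WT and 26.5, 19.3 and 12.7 for the C6KO libraries. In BAT it was 10.1, 11.6 and 11.2 for the WT and 11.9, 16.3 and 16.8 for the C6KO libraries. The S phase genes had 6.14 to 7.11 CPM per 100 CPM of macrophage markers in WT and 6.97 to 7.87 in C6KO of eWAT. In iWAT the S phase genes had 9.07 to 11.0 in WT and 13.2 to 29.4 in C6KO, and in BAT 17.5 to 19.3 in WT and 31.2 to 41.0 in C6KO. On this scale the C6KO libraries lay above all WT libraries for both classes in BAT and for the S phase genes in iWAT, while the mitotic genes of iWAT overlapped, with C6KO replicate 3 within the WT range.

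**Figure D4:**
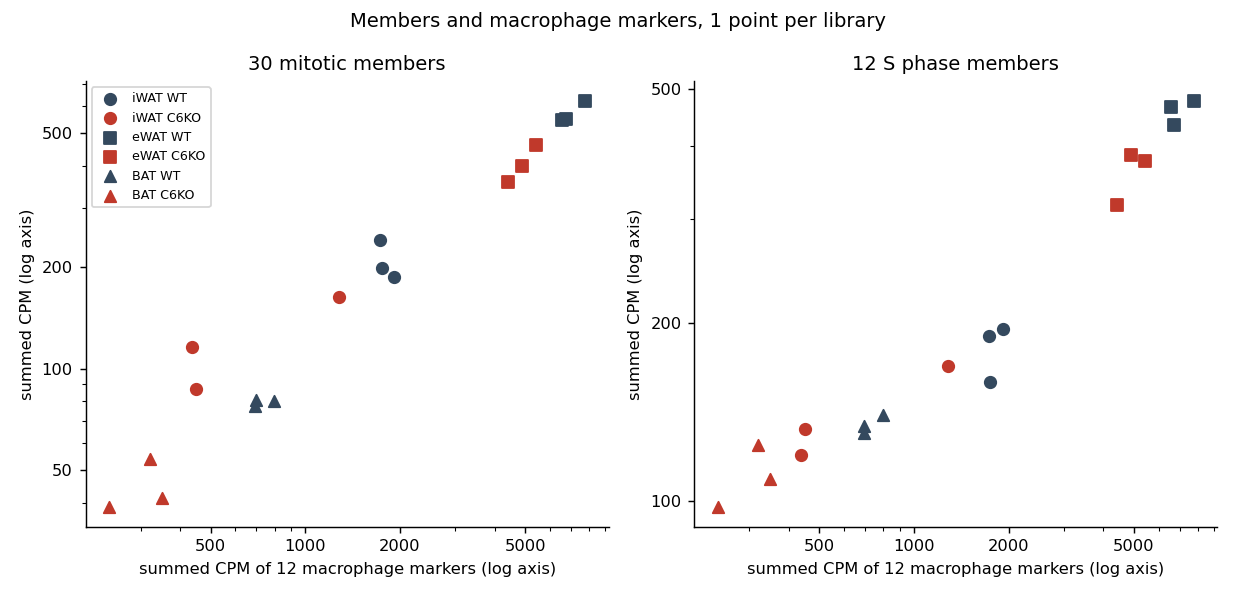
Summed CPM within depot of the 30 mitotic genes (left) and 12 S phase genes (right) against the summed CPM of 12 macrophage markers, both on log axes, with 1 point per library, shapes for depots and colours for genotypes. In each depot every C6KO point lies left of every WT point, and every C6KO point also has the lower sum, except for the S phase genes in iWAT C6KO replicate 3.

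Markers of other cell types also had estimates to 1 side, some of them in every depot, and counts of calls are given from edgeR, at an unadjusted p below 0.05 with a fold change of 1.5, and from DESeq2. The shares of all genes lower by these counts are given above. Over all genes, 4.2% in eWAT, 2.61% in iWAT and 2.62% in BAT were higher unadjusted, and 2.77%, 1.18% and 1.05% by DESeq2. Adipocyte progenitor markers had lower estimates for 7 of 8 genes in each depot, with medians of -0.21 in eWAT, -0.48 in iWAT and -0.34 in BAT. edgeR called 0 of them in each depot, with 0, 3 and 1 unadjusted and 0, 2 and 1 by DESeq2. Their summed levels did not overlap between genotypes in iWAT (2433 to 2521 CPM in WT and 1275 to 1873 CPM in C6KO) and in eWAT (4139 to 4617 and 3366 to 3872 CPM) but did in BAT. Endothelial markers had higher estimates for 8 of 8 genes in eWAT and in BAT and for 4 of 8 in iWAT, with 0 called by edgeR in each depot and, in both eWAT and BAT, 1 unadjusted and 1 by DESeq2. Their sum lay at 645 to 735 CPM in WT and 881 to 1050 CPM in C6KO of eWAT, and at 879 to 1107 and 1232 to 1243 CPM in BAT.

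T and NK lymphocyte markers had lower estimates for 10 of 10 genes in eWAT, 9 of 10 in iWAT and 2 of the 2 tested in BAT. edgeR called 0 in each depot (1, 0 and 0 unadjusted, and 1, 0 and 2 by DESeq2), and the sums overlapped in eWAT, at 33.8 to 132 CPM in WT and 15.8 to 80.9 CPM in C6KO, and in iWAT. Erythroid markers had lower estimates for 5 of 5 genes in iWAT (median -1.47) and in BAT (median -1.02) and higher ones for 5 of 5 in eWAT (median 0.88). edgeR called 0 in each depot, with 4 unadjusted and 1 by DESeq2 in iWAT, where the sum was 179 to 461 CPM in WT and 43.8 to 155 CPM in C6KO, and 0 by either count in eWAT and BAT. Hepatocyte markers had higher estimates for 5 of 5 tested genes in both white depots. edgeR called Ttr higher in eWAT (background 0.537%) and 0 in iWAT, with 4 and 1 unadjusted and 5 and 0 by DESeq2. Mature adipocyte markers had higher estimates for 6 of 6 genes in eWAT, for 5 of 6 in iWAT and for 4 of 6 in BAT. edgeR called Plin1 and Lipe higher in eWAT (background 0.537%) and Lep lower in BAT (background 1.07%). The 6 adipocyte markers summed to 10060 to 11890 CPM in WT and 13940 to 17910 CPM in C6KO of eWAT. Mesothelial markers in eWAT and skeletal muscle markers in BAT had lower estimates for 6 of 6 genes each, with 0 called by edgeR, unadjusted or by DESeq2. Both sums overlapped between genotypes, the mesothelial one at 136 to 228 CPM in WT and 50.2 to 206 CPM in C6KO. The muscle sum in BAT was 33.9 to 26730 CPM in WT, highest in replicate 2, and 297 to 5621 CPM in C6KO. The part of these cells in the results was not tested.

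Whether the genotype difference itself varied between depots was tested as an interaction in 1 edgeR fit of all 18 libraries, over 15866 genes. For eWAT against iWAT, 0 of 43 genes were called (background 0% in either direction), with 3 higher at an unadjusted p below 0.05 (Kif4, Ect2 and Anln, against 3.62% of all genes). For BAT against iWAT, 0 of 43 were called (background 0.113% lower and 0.0693% higher), with Top2a and Ttk lower at an unadjusted p below 0.05 (against 6.37% of all genes). For BAT against eWAT, 0 of 43 were called (background 0.485% lower and 0.0504% higher), with Top2a, Kif4, Tpx2, Ttk and Hmmr lower at an unadjusted p below 0.05 (against 8.34% of all genes). DESeq2 called 0 of the 43 in each of the 3 comparisons. Kif4, Ttk and Hmmr were too rare to be tested within BAT and could pass the filter of this fit through other depots. Their differences against BAT rest on few BAT counts, and Tpx2 passed the filter within BAT through WT alone. Tpx2 had an interaction of -1.34 (SE 0.41, edgeR adjusted p = 0.18) and Top2a of -1.04 (SE 0.33, edgeR adjusted p = 0.203) for BAT against eWAT on the log2 scale. Without iWAT C6KO replicate 3, Tk1 alone was called, higher for eWAT against iWAT, against 1.41% of all genes. The calls of Mki67 and Top2a in eWAT are therefore not shown to be particular to that depot.

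More of the 43 genes were called between depots than between genotypes. In WT, 35 of the 43 genes were higher in eWAT than in iWAT (background 12.8%), with a median log2 difference of 1.35 and all 43 estimates above 0. BAT was lower than iWAT for 31 genes (background 18.7%) and higher for 1, Rrm1 (background 20.1%), and lower than eWAT for 40 (background 23.6%), with a median of -2.62. In C6KO the counts were 37 higher in eWAT than in iWAT (background 14.1%), 29 lower (background 20.2%) and 1 higher (background 18%) in BAT than in iWAT, and 39 lower in BAT than in eWAT (background 26.5%). Genes could pass the filter of this fit through 1 depot alone, so those too rare to be tested within BAT are included. With at least 10 counts in every library, fewer of the 43 genes were tested and called, as given in the closing section. For 40 of the 43 genes the WT means fell in the order eWAT, iWAT, BAT, and the exceptions were Mcm7, Rrm1 and Tyms. Scaling by total counts alone shifted the median of all genes by -0.29 for BAT against eWAT and by 0.14 for eWAT against iWAT in WT, and under it Mcm7 in WT changed sign and Rrm1 in WT was no longer called between BAT and iWAT. The macrophage markers followed the same order, with 12 of 12 higher in eWAT than in iWAT and 12 of 12 lower in BAT than in eWAT of WT, and their part in the depot differences was not tested.

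Levels between genes were compared as CPM scaled over all depots and divided by the length of the listed transcript in kb. Pcna was highest of the 43 genes in every depot of WT, at 52.1 CPM per kb in eWAT, 22.3 in iWAT and 17.7 in BAT (means, n = 3). The lowest in eWAT were Ttk at 1.09 and Cenpf at 1.11 CPM per kb, and the lowest in BAT was Kif15 at 0.0811 CPM per kb. Mki67 had 8.35, 9.28 and 8.0 CPM per kb in the WT libraries of eWAT. In iWAT of WT, Mki67 had 2.24, 2.37 and 2.06 CPM per kb, and in BAT it had 0.682, 0.985 and 1.11. The Mki67 ranges of the 3 depots did not overlap, and its log2 difference was 1.94 (SE 0.31, edgeR adjusted p = 0.000286) for eWAT against iWAT and -1.25 (SE 0.33, edgeR adjusted p = 0.00523) for BAT against iWAT in WT. Kif15 had the largest fall from eWAT to BAT in WT, at -4.58 (SE 0.60, edgeR adjusted p = 5.75e-06), and its counts in BAT were too low to be tested within that depot.

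Several genes departed from this pattern. Cdk1 had 4.78, 4.95 and 3.58 CPM per kb in eWAT and 4.78, 3.88 and 3.45 in iWAT of WT, ranges that overlapped, and its log2 difference of 0.14 (SE 0.28, edgeR adjusted p = 0.745) was not called, although Cdk1 in BAT was lower than in iWAT at -2.08 (SE 0.31, edgeR adjusted p = 4.13e-05). Rrm1 had 7.33, 5.68 and 6.52 CPM per kb in iWAT and 11.02, 9.901 and 10.7 in BAT of WT, without overlap and higher in BAT at 0.70 (SE 0.15, edgeR adjusted p = 0.00131). Rrm1 in eWAT, at 13.2, 13.2 and 12.7 CPM per kb, was above BAT in every library, but the difference of -0.30 (SE 0.15, edgeR adjusted p = 0.094) was not called. In C6KO, Rrm1 was again higher in BAT than in iWAT, at 0.996 (SE 0.15, edgeR adjusted p = 5.01e-05). Mcm7 differed by 0.04 (SE 0.17, edgeR adjusted p = 0.869) and Tyms by 0.49 (SE 0.28, edgeR adjusted p = 0.166) between BAT and iWAT in WT, and neither was called. E2f1 showed the opposite extreme among the S phase genes, lower in BAT than in iWAT at -2.31 (SE 0.24, edgeR adjusted p = 1.06e-06). From eWAT to BAT in WT the mitotic genes had a median difference of -2.75 with 30 of 30 called, and the S phase genes one of -1.95 with 9 of 12 called, the others being Mcm7, Rrm1 and Tyms. In C6KO these medians were -3.62 with 29 of 30 mitotic genes called and -2.25 with 9 of 12 S phase genes called. All of the genes too rare to be tested within BAT are among the mitotic genes.

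**Figure D5:**
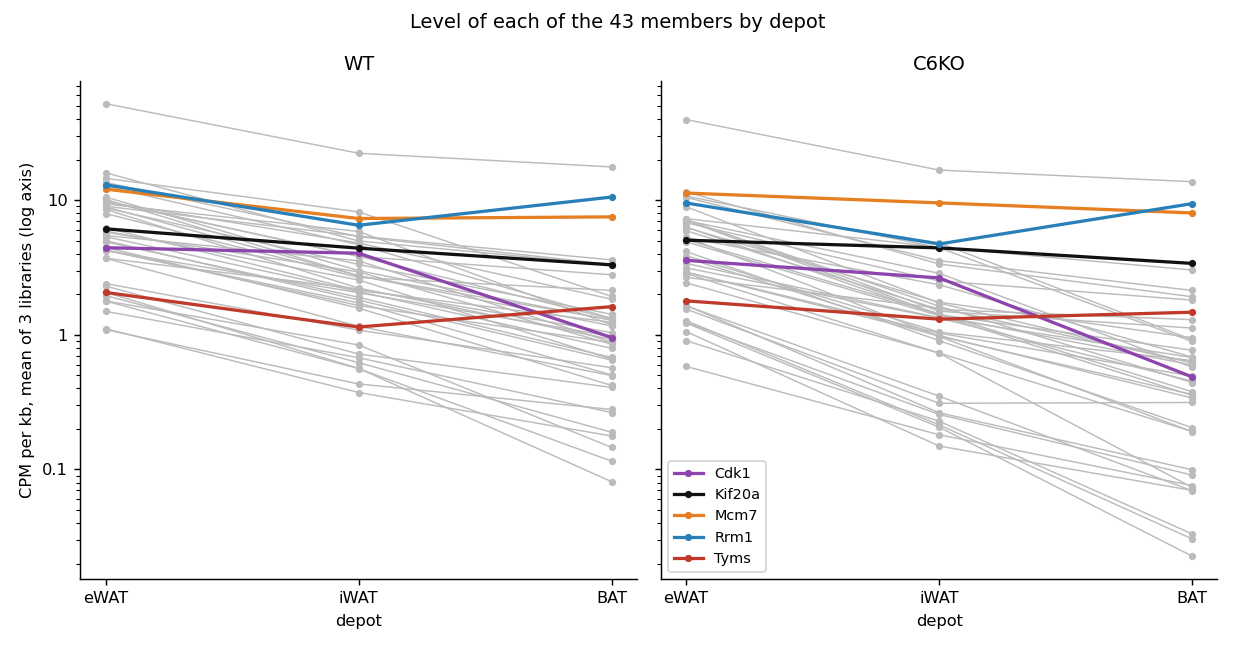
Mean CPM per kb of 3 libraries (log axis) for each of the 43 genes in eWAT, iWAT and BAT of WT (left) and C6KO (right), joined by 1 line per gene, with 5 genes coloured. Most lines descend from eWAT to BAT, while Rrm1 (blue) is higher in BAT than in iWAT and Cdk1 (purple) is nearly level between eWAT and iWAT in WT.

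The wider pathway was read from lists of genes that are not among the 43. Of 61 other mitotic genes, 56 of 59 tested had lower estimates in C6KO of iWAT, 57 of 61 in eWAT and 29 of 35 in BAT, with medians of -0.91, -0.44 and -0.53. edgeR called 1 of them, Cenpe, which encodes a kinetochore motor, in eWAT, and 0 in iWAT and BAT, while 21, 17 and 10 were lower at an unadjusted p below 0.05 with a fold change of 1.5 in iWAT, eWAT and BAT, and DESeq2 called 8, 7 and 1. For this list and those below, the shares of all genes lower in that order were 6.72%, 2.79% and 6.27% unadjusted. By DESeq2 the shares were 3.53%, 1.22% and 2.62%, and by edgeR 0.208% in eWAT. Cenpe stood at 16.1, 19.99 and 22.5 CPM in WT and 10.8, 10.9 and 8.87 CPM in C6KO of eWAT, without overlap, and its log2 fold change was -0.94 (SE 0.17, edgeR adjusted p = 0.0468). The 35 other S phase genes had medians of -0.45, -0.32 and -0.34, with 0 called by edgeR or DESeq2 and 5, 1 and 4 lower at an unadjusted p below 0.05 with a fold change of 1.5. A list of 11 genes of G1 held cyclins and kinases together with Skp2, Cdc25a and Myc. Its medians were -0.03, -0.12 and 0.01 in the same order, with 0 called by edgeR. At an unadjusted p below 0.05 with a fold change of 1.5, Skp2 was lower in iWAT and in BAT Ccnd1 was lower and Cdc25a higher, and DESeq2 called Ccnd1 lower in BAT. The 16 E2F, MuvB and FOXM1 factors, 14 of them tested in BAT, had medians of 0.03, -0.10 and -0.18, with 0 called by edgeR. E2f8 was lower at an unadjusted p below 0.05 with a fold change of 1.5 in iWAT and eWAT and Foxm1 in iWAT, 0 were in BAT, and DESeq2 called E2f8 in iWAT, where its estimate of -1.85 was the lowest of this list.

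The CDK inhibitors restrain the kinases that the cyclins activate, and with the pocket proteins and p53 they had medians of 0.04, -0.14 and -0.19 in iWAT, eWAT and BAT, with 0 of 11, 0 of 11 and 0 of 10 called by edgeR and 1, 0 and 0 past an unadjusted p of 0.05 with a fold change of 1.5. Cdkn1a (p21) stood at 110, 93.3 and 90.1 CPM in WT and 72.4, 27.8 and 74.6 CPM in C6KO of iWAT, lower in each C6KO library, at a log2 fold change of -0.75 (SE 0.35, edgeR adjusted p = 0.348). Cdkn1c (p57) stood at 12.7, 17.8 and 15.3 CPM in WT and 22.97, 48.8 and 26.1 CPM in C6KO of iWAT, higher in each C6KO library, at a log2 fold change of 1.09 (SE 0.29, edgeR adjusted p = 0.168, DESeq2 adjusted p = 0.0119). Cdkn1c was the 1 gene of this list that DESeq2 called in any depot. In WT, Cdkn1a had the highest level of the 7 inhibitors per length in the white depots, at 56.3 CPM per kb in eWAT and 51.8 in iWAT, whereas Cdkn2c was highest in BAT at 47.8 CPM per kb against 37.7 for Cdkn1a. Cdkn2a, the p16 and p19 locus, had 2.54 CPM per kb in eWAT, 0.69 in iWAT and 0.09 in BAT of WT, and its counts in BAT were too low to test.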

How the data were processed

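Adipose tissue RNA-seq of 18 libraries was analysed from the gene-level counts that the authors deposited for each depot. The authors mapped reads to mm10 with STAR and counted reads over exons with HOMER, keeping 1 transcript per gene, and their submission also names DESeq2. Strandedness of the counting is not given in the sources used here. Every value column was assigned to a library by its name (0 were left out). Total counts per library and their ranges stand in the text, and the number of reads sets the precision of rare transcripts.

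Genes were filtered with filterByExpr and tested with edgeR 4.0.16 (TMM, robust quasi-likelihood, two-sided) in R 4.3.3, separately for each depot (14889 genes in eWAT, 14533 in iWAT, 13595 in BAT), with 3 C6KO against 3 WT libraries. Depots and interactions were tested in 1 fit of 18 libraries. Calls required an adjusted p (Benjamini-Hochberg) below 0.05 together with an estimated fold change of 1.5 or more. Printed fold changes are edgeR's estimates for C6KO relative to WT. The code was tested on simulated data. DESeq2 1.42.0, other scalings, filters and fits, a replicate block and leaving out each library were tried as alternatives. CPM used TMM factors computed within a depot or over all 18 libraries.

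The 43 genes, their roles and all lists were chosen with earlier results of these data known. Values in every library were printed for Mki67, Top2a, called genes, the smallest p and the lowest and highest estimates per depot, and at least 1 gene per role. Promoter sequences came from RefSeq (GRCm38.p6), and motifs were matched on both strands.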

Additional observations from a re-analysis of the deposited data

How the results depend on the processing

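The medians of the mitotic and of the S phase genes kept their sign in each depot under all alternatives run, whereas the counts of genes called in C6KO against WT depended on the tool and on single libraries. With DESeq2 the calls numbered 6 in eWAT, 8 in iWAT and 2 in BAT (1.22%, 3.53% and 2.62% of all genes were called lower). With no filter on low counts 4 were called in eWAT (Mki67, Top2a, Kif15 and Cenpf, against 0.495% of all genes), and with at least 10 counts in every library 1 was called in BAT (Top2a, against 1.15%). One fit of all 18 libraries gave 5 in iWAT (Top2a, Kif4, Ect2, Mcm5 and Tk1), 0 in eWAT and 6 in BAT (Top2a, Kif11, Tpx2, Prc1, Ttk and Mcm6), against 1.94%, 0.0189% and 2.71% of all genes, and the cause was not tested. Of these, Ttk was too rare to be tested within BAT and could enter this fit through other depots. Requiring at least 10 counts in every library left fewer genes to test and gave 18, 14 and 18 calls in WT and 16, 12 and 17 in C6KO for eWAT against iWAT, BAT against iWAT and BAT against eWAT. Of all genes, 13.6% in WT and 12.8% in C6KO were then called higher in eWAT than in iWAT. For BAT against iWAT 21.2% were lower in either genotype, with 19.8% and 19% higher. For BAT against eWAT 25.2% and 25.1% were lower.

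Leaving out 1 library at a time gave 0 to 17 calls in iWAT (17 without C6KO replicate 3, against 6.43% of all genes), 0 to 6 in eWAT (6 without C6KO replicate 2, against 0.616%) and 0 in BAT, and 0 to 1 for the difference of the C6KO effect between eWAT and iWAT (1, Tk1, without iWAT C6KO replicate 3, against 1.41%). Estimates near 0 changed sign. With total counts as the only scaling Kif20a was at -0.0551 in iWAT and E2f1 at -0.0235 in eWAT. Without single libraries Kif20a ranged from -0.0504 to 0.061 in iWAT and from -0.0916 to 0.18 in BAT, E2f1 from -0.0512 to 0.12 in eWAT, Mcm7 from -0.21 to 0.0307 in eWAT and from -0.0553 to 0.27 in BAT, and Bub1b from -0.35 to 0.41 in BAT.

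WT and C6KO libraries of the same number came from different animals. Their deviations from the group means had mean correlations of 0.072 in eWAT, 0.0299 in iWAT and -0.381 in BAT. Deviations sum to 0 within a group, which ties these values to those of other-numbered libraries, at -0.0362, -0.0149 and 0.18. The correlations therefore cannot decide whether the numbers pair the samples. The paper used littermates and cagemates, and whether the numbers follow litters or cages is not given. With the replicate block 6 genes were called in eWAT (Mki67, Top2a, Kif11, Kif15, Cenpf and Nusap1, against 0.779% of all genes), and 0 in iWAT and BAT. In BAT 12 of the 43 genes had too few counts to be tested, where both the library totals and the share of counts from the mitotic genes were lowest, and the parts of these were not told apart.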
